A study of Mus musculus with 14 samples.

Results

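Granzymes and receptors of the natural killer (NK) type were examined in group 2 innate lymphoid cells (ILC2s) sorted from mouse lung. The 10 genes were chosen by name and matched by symbol in the raw count and TPM tables, the latter scaled by transcript length and to the same total in each library: Gzma, Gzmb, Gzmc, Prf1, Nkg7, Klrk1, Klrd1, Klrb1c, Clec2d and Clec2i. All 10 were chosen with earlier results of these data known, and were found among the 53278 genes of each table. RNA-seq was performed on 14 libraries of female mice after sorting of live, lineage-negative, CD90.2+ CD3- lung cells. The labels number the libraries by mouse and the design text speaks of individual mice, while the study's figure legends, also where they cover these libraries, describe sorted samples of pooled animals, so whether a library is 1 mouse is not settled. In the stimulation experiment, 4 libraries came from unstimulated B6 ILC2s and 4 from B6 ILC2s given 20 ng/mL IL-33 for 24 h in complete RPMI. The labels give no culture time for the unstimulated cells, while the design text describes a parallel 24 h culture and also calls them ex vivo, so IL-33 and time in culture cannot be told apart with certainty. In the Blimp-1 experiment, 3 Control (ControlIL7RaCre) and 3 Blimp-1-deficient (Blimp-1IL7RaCre) libraries came from ILC2s cultured for 72 h with 20 ng/mL IL-33 and 20 ng/mL IL-25, to which the study's methods, but not the labels, add IL-2. Both genotypes are named for a Cre expressed from Il7ra. Its activity is not limited to ILC2s, so the deletion of Prdm1, which encodes Blimp-1, also reaches other lymphocytes, NK cells among them.

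Granzymes are serine proteases stored in the granules of cytotoxic lymphocytes. Perforin forms the pores through which they reach the cytosol of a target cell, and intracellular serpins protect the granzyme-bearing cell itself. NK-type receptors of the C-type lectin family are encoded together in the NK gene complex, next to the Clec2 genes that encode ligands of the NKR-P1 receptors. ILC2s belong to the helper-like innate lymphocytes and are known for type 2 cytokines more than for cytotoxicity.

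Total counts ranged from 10470125 (3_stim) to 32849428 in the stimulation experiment and from 13570188 (WT_2) to 76448945 in the Blimp-1 experiment. Levels are given as CPM, which are counts scaled to 1e+06 per library after TMM normalization. In WT_2, Control replicate 2, 7 genes held 76.8% of the counts, against at most 5.57% in the other Blimp-1 libraries, and 3 counts equalled 0.731 CPM, against at most 0.0387 CPM elsewhere in that experiment. In 3_stim, IL-33 stimulated replicate 3, 3 counts equalled 0.295 CPM, against at most 0.127 CPM in the other 7 libraries. The comparisons of the 10 genes are therefore given with and without 3_stim or WT_2. Prdm1 followed the labels, with 75.2, 92.8 and 74.0 CPM in Control and 14.6, 11.5 and 11.45 CPM in the Blimp-1-deficient libraries. ILC2 markers dominated every library, with a summed level of at least 10230 CPM over 20 genes. NK and ILC1 markers were sparse apart from Il2rb. The 16 others that are not among the 10 genes summed to 39.7 to 81.4 CPM, and Klrb1c, which encodes NK1.1, was measured at or below 0.35 CPM in all 14 libraries. Its count of 0 in WT_2 allows up to 0.731 CPM, counting error only.

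The genes, all protein-coding, lie in 5 places of the GRCm38 genome. Gzma (ENSMUSG00000023132.8) is on chromosome 13 at chr13:113093825-113100981. Gzmb (ENSMUSG00000015437.5, chr14:56258838-56262260) and Gzmc (ENSMUSG00000079186.3, chr14:56231441-56234656) are neighbours in the granzyme cluster of chromosome 14. Prf1 (ENSMUSG00000037202.6) lies at chr10:61297833-61304680 and Nkg7 (ENSMUSG00000004612.9) at chr7:43437073-43438249. The other 5 share the NK gene complex of chromosome 6: Klrb1c at chr6:128778485-128789215, Clec2i at chr6:128887588-128898167, Clec2d at chr6:129180615-129186534, Klrd1 at chr6:129591782-129598775 and Klrk1 at chr6:129610323-129623864. None of the 75-base stretches of 8 of these transcripts was found in a transcript of another gene. Clec2i shared 0.875% of its stretches, mainly with Clec2h, and Klrb1c shared 13.2% with Gm44511, which overlaps 413 of its 2961 exon bases on the same strand, so the counts of Klrb1c are uncertain.

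Promoters are shown for the 4 genes that fell with IL-33. Each sequence holds the 250 bases before the RefSeq start site (GRCm38.p6) and is written 5′ to 3′ along the gene's strand. Capitals mark matches, on either strand, to 4 motifs. The core of the sequence bound by Blimp-1 was searched as GNGAAAG. The AP-1 motif was searched as TGANTCA. The motif of T-box factors was searched as AGGTGT and that of the factors related to GATA3 as AGATAA.
Gzmb, chr14:56262335-56262584, minus strand: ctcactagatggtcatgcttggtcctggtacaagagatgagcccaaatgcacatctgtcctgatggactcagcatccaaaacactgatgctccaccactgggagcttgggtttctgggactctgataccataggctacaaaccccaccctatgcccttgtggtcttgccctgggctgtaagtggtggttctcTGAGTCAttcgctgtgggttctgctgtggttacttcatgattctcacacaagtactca
Nkg7, chr7:43436888-43437137, plus strand: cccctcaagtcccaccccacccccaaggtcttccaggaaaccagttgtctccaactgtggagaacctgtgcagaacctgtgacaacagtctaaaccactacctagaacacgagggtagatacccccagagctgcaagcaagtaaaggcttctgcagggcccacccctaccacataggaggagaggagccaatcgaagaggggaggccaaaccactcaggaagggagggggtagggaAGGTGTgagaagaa
Klrk1, chr6:129623865-129624114, minus strand: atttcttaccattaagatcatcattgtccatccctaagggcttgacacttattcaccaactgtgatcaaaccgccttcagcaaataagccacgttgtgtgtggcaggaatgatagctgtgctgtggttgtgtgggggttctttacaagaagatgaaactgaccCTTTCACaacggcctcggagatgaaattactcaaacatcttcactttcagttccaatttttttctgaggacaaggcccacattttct
Clec2i, chr6:128887337-128887586, plus strand: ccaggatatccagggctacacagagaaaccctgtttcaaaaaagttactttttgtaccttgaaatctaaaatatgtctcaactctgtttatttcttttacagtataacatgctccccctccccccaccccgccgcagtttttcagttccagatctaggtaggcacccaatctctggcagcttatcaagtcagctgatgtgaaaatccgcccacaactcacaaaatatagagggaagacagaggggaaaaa
Gzmb held an AP-1 match that begins at base -58 from the start site, Nkg7 a T-box match at -14 and Klrk1 a match to the Blimp-1 core at -87. None of the 4 motifs was present in the Clec2i window. Among the 9 of the 10 genes with an entry in the promoter table, 3 held the T-box motif (Gzma, Prf1 and Nkg7), 2 the Blimp-1 core (Gzma and Klrk1), 1 the AP-1 motif (Gzmb) and 0 the motif of GATA3. Of all 32851 promoters of this length, 11.8%, 19.4%, 6.75% and 9.99% held these motifs, in that order. A match describes letters in the sequence and does not show a bound site.

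Levels can be set side by side between genes only per transcript length, in TPM, and the tables of the experiments were normalized separately. In unstimulated ILC2s, Gzmb was the most abundant of the 10 genes at 158.9 ± 52.8 TPM (SD, n = 4), followed by Clec2d at 135.4 ± 27.3 TPM. The ranges of these genes overlapped. A middle group held Gzmc at 16.1 ± 19.8, Clec2i at 12.6 ± 2.21 and Nkg7 at 11 ± 1.58 TPM, again with overlapping ranges. Gzma, Prf1, Klrd1 and Klrk1 had means between 1.58 and 2.12 TPM, and Klrb1c was last at 0.0846 ± 0.0582 TPM. In stimulated ILC2s, Clec2d at 80.1 ± 22.3 TPM stood first and Gzmb second at 63.9 ± 12.3 TPM (n = 4), with overlapping ranges, and Clec2i was at 2.04 ± 1.08 TPM.

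In the 2 Control libraries other than WT_2, Gzmb was first at 240.2 and 353.0 TPM, above Clec2d at 84.9 and 101.1 TPM. Clec2i held place 9 of 10 there, at 0.438 and 1.08 TPM. In the 3 Blimp-1-deficient libraries Clec2i was at 11.1 ± 3.9 TPM, place 4 of 10. Gzmb at 92.5 ± 82.2, Clec2d at 75.9 ± 15.5 and Gzmc at 64.9 ± 89.4 TPM had higher means (n = 3), and the ranges of these 3 overlapped. The mean of Gzmc rested on Blimp-1-deficient replicate 1 at 168.1 TPM, and its range, from 9.36 TPM, overlapped that of Clec2i, from 6.89 to 14.6 TPM. In WT_2 every one of the 10 genes had 5.01 TPM or less, in the library where 7 genes held 76.8% of the counts.

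**Figure D1:**
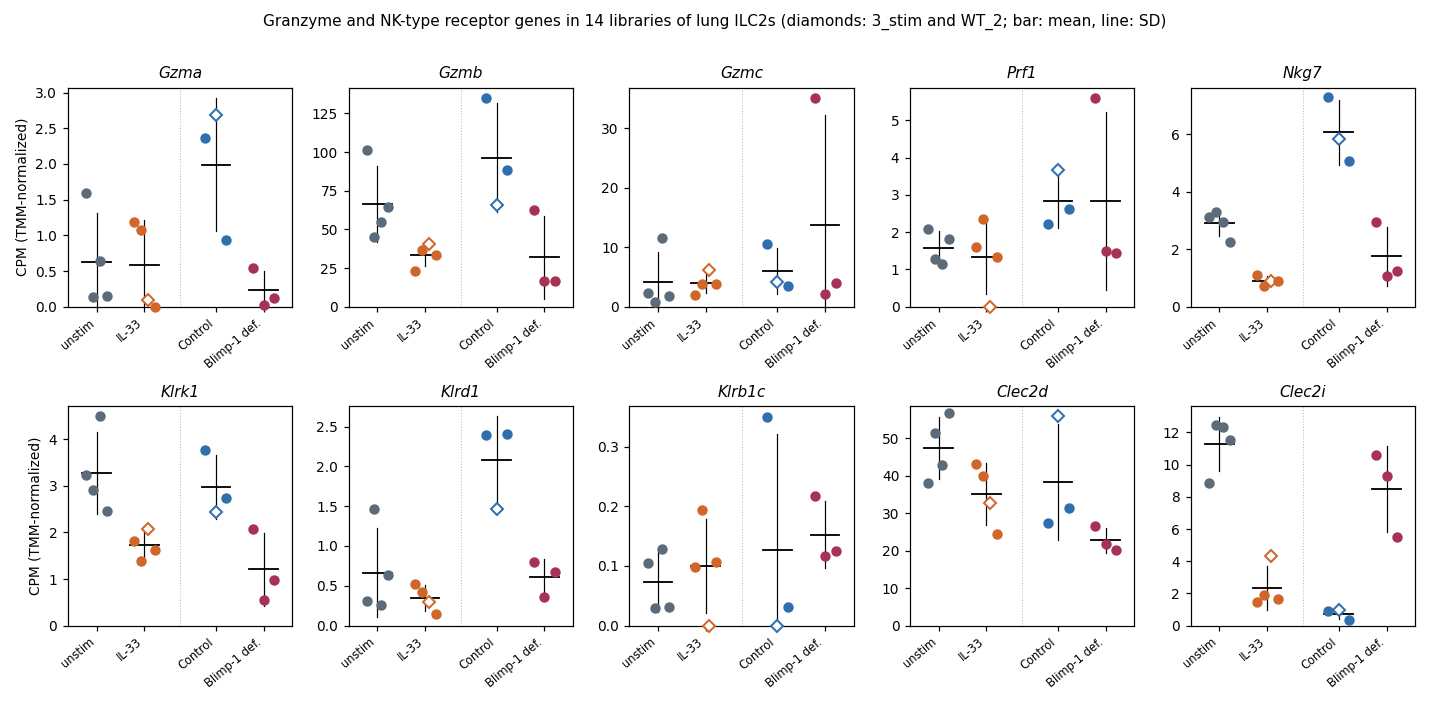
Each panel plots one gene, with TMM-normalized CPM on a linear axis from 0 and the 4 groups along the horizontal axis. Points are libraries, diamonds are 3_stim and WT_2, bars are means and lines are SDs over all libraries of a group. Every stimulated library lies below every unstimulated library for Gzmb, Nkg7, Klrk1 and Clec2i, and every Blimp-1-deficient library lies above every Control library for Clec2i.

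The first comparison asked how the genes differed between IL-33 stimulated and unstimulated ILC2s. At an adjusted p below 0.05 by edgeR, 4 of the 9 genes tested were lower (Gzmb, Nkg7, Klrk1 and Clec2i) and 0 were higher, against 16.1% lower and 16.2% higher among the 15466 genes tested. At an unadjusted p below 0.05 the counts were also 4 and 0, against 21.3% and 22.6% of all genes, and no alternative called any of the 9 genes higher. The median log2 fold change of the 9 genes was -0.93, against 0.06 over all genes tested. Klrb1c did not pass the filter on low counts.

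Clec2i, which encodes Clr-g, a ligand of the receptor NKR-P1F, changed most. It was at 8.85, 12.5, 12.3 and 11.6 CPM in the unstimulated libraries and at 1.48, 1.88, 4.33 and 1.66 CPM in the stimulated ones. The groups did not overlap, and 3_stim was the highest of the stimulated libraries. The log2 fold change was -2.29 (SE 0.375, adjusted p = 0.00243), a 4.89-fold lower level. Without 3_stim it was -2.75 (SE 0.175, adjusted p = 8.36e-07), or 6.74-fold lower.

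Nkg7 encodes a membrane protein of cytotoxic granules. Its level was 3.12, 3.29, 2.93 and 2.27 CPM in unstimulated libraries and 1.12, 0.713, 0.886 and 0.885 CPM after IL-33. It fell 3.21-fold (log2 fold change -1.68, SE 0.25, adjusted p = 0.00151), and 3.20-fold without 3_stim (adjusted p = 0.000212).

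Gzmb, the granzyme that cleaves after aspartate and activates caspases, had 101, 45.0, 54.9 and 64.5 CPM in unstimulated libraries and 23.4, 36.6, 40.5 and 33.5 CPM in stimulated ones. The lowest unstimulated library was just above the highest stimulated one. Gzmb fell 1.99-fold (log2 fold change -0.99, SE 0.271, adjusted p = 0.0249). Without 3_stim the fall was 2.13-fold (adjusted p = 0.00511).

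Klrk1 encodes NKG2D, an activating receptor for stress-induced ligands. It was at 3.23, 2.92, 4.50 and 2.46 CPM in unstimulated libraries and at 1.81, 1.39, 2.07 and 1.63 CPM after IL-33, without overlap. The log2 fold change was -0.93 (SE 0.265, adjusted p = 0.0291), or 1.90-fold lower, and -1.02 without 3_stim (adjusted p = 0.00509). Every stimulated library lay below every unstimulated one for these 4 genes, as for 21% of all genes tested, and for 30.1% without 3_stim. The calls of Nkg7 and Clec2i held under each of the 17 alternatives, that of Gzmb under 11 and that of Klrk1 under 7. The call of Gzmb was lost without Unstimulated replicate 1 or 4 or IL-33 stimulated replicate 1, 2 or 4, with adjusted p from 0.0502 to 0.0784 and a log2 fold change of -0.64 without Unstimulated replicate 1. Klrk1 lost its call without Unstimulated replicate 1, 2 or 3 or IL-33 stimulated replicate 1, 2 or 4, with adjusted p from 0.0641 to 0.0871. It was also lost without a filter on low counts (0.0901), with limma on TPM at a pseudocount of 1 or 0.1 (0.0809 and 0.0575) and with the replicate number as a block (0.0667). The block also removed the call of Gzmb (adjusted p = 0.0923). Without 3_stim both held under all 16 alternatives.

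The other 5 tested genes overlapped between the groups and did not pass the threshold by edgeR at the settings used. Clec2d, which encodes Clr-b, a ligand of the inhibitory receptor NKR-P1B, was at 38.2, 51.4, 43.0 and 56.6 CPM in unstimulated and at 43.1, 39.98, 32.6 and 24.4 CPM in stimulated libraries. Its log2 fold change was -0.43 (SE 0.199, adjusted p = 0.128). It passed under 2 of 17 alternatives, limma on TPM with either pseudocount, at -0.77 and -0.78 (adjusted p = 0.0264 and 0.0258). Without 3_stim it was at -0.40 (adjusted p = 0.101) and passed under 4 of 16, these and library size alone and no filter, with adjusted p from 0.0241 to 0.0354. Klrd1 encodes CD94, the partner chain of NKG2 receptors other than NKG2D. Klrd1 ranged from 0.255 to 1.46 CPM in unstimulated and from 0.142 to 0.526 CPM in stimulated libraries (log2 fold change -0.93, SE 0.656, adjusted p = 0.30, and -0.90 without 3_stim, adjusted p = 0.265).

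Prf1, the perforin gene, ranged from 1.15 to 2.08 CPM in unstimulated ILC2s and from 0 in 3_stim to 2.37 CPM in stimulated ILC2s. The count of 0 in 3_stim allows up to 0.295 CPM, counting error only. Gzma, a trypsin-like granzyme, varied from 0.143 to 1.60 CPM among unstimulated and from 0 to 1.18 CPM among stimulated libraries. Gzmc, another granzyme of the mouse cluster, was at 2.33, 0.859, 11.6 and 1.73 CPM in unstimulated and at 2.00, 3.89, 6.21 and 3.79 CPM in stimulated libraries. Their log2 fold changes were -0.22 for Prf1 (SE 0.807, adjusted p = 0.85), -0.03 for Gzma (SE 1.2, adjusted p = 0.988) and -0.06 for Gzmc (SE 0.786, adjusted p = 0.962). Without 3_stim they were 0.16, 0.29 and -0.32, with adjusted p of 0.661, 0.82 and 0.736. Unstimulated replicate 3 held the highest value of Gzmc, and the sign of the fold change of these 3 genes depended on single libraries.

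Without 3_stim, 4 of 9 genes were again lower and 0 higher by edgeR, against 29.7% lower and 27.5% higher among 15733 genes, and they were the genes named above. The median log2 fold change of the 9 genes was -0.90, against -0.05 over all genes. Summed levels of the markers of several other cell types differed between the groups as well. Calls of markers are given with all libraries, against 16.1% lower and 16.2% higher of all genes, unless 3_stim is named. The summed level of the 13 T cell markers was 215 to 251 CPM in unstimulated and 72.8 to 99.6 CPM in stimulated libraries. Of the 13, 7 were lower, and 8 without 3_stim. The CD3 chain genes Cd3e, Cd3d and Cd3g, which define T cells and were the basis of their exclusion in the sort, summed to 39.0 to 50.5 CPM and 11 to 21.7 CPM. Myeloid markers (15 genes) summed to 1800 to 2199 CPM in unstimulated and 709.5 to 1014 CPM in stimulated libraries. Of the 12 tested, 1 was lower and 4 had a fold change above 0. Without 3_stim, 3 of the 12 were lower and 1 had a fold change above 0. The sums were 305.7 to 372.7 and 130.2 to 186.4 CPM for 9 mast cell and basophil markers, and 508.3 to 817.6 and 280.5 to 474.8 CPM for 14 epithelial and stromal markers. Of these lists 2 of 3 tested genes were lower in the former, and 4 of 10 lower and 2 higher in the latter. Without 3_stim, 2 of 3 were lower in the former, and 6 of 10 lower and 2 higher in the latter. The sums thus do not stand for every gene of a list. All these sums were lower in every stimulated library. The 16 NK and ILC1 markers named above summed to 54.9 to 63.4 CPM in unstimulated and to 52.2 to 61.5 CPM in stimulated libraries. The part of other cells in the fall of the 4 genes was not tested, and in bulk RNA fewer cells of a type cannot be told apart from less RNA per cell.

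The second comparison asked how the genes differed when Blimp-1 was removed from ILC2s activated with IL-33 and IL-25. With all 6 libraries, 1 of the 10 genes was higher (Clec2i) and 0 were lower at an adjusted p below 0.05 by edgeR, against 0.45% higher and 0.306% lower among the 17335 genes tested. At an unadjusted p below 0.05, 6 were lower and 1 was higher, against 5.78% and 6.17% of all genes, and DESeq2 called 3 lower, against 3.19%. The median log2 fold change of the 10 genes was -1.02, against -0.02 over all genes tested. Without WT_2, 1 gene was higher (Clec2i) and 2 were lower (Nkg7 and Klrd1), against 8.25% higher and 5.72% lower among 17968 genes.

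Clec2i was at 0.892, 0.974 and 0.349 CPM in Control libraries 1 to 3 and at 10.6, 9.32 and 5.5 CPM in Blimp-1-deficient libraries 1 to 3. Every Blimp-1-deficient library was above every Control library, as for 11.8% of the genes tested. Clec2i was 12.6-fold higher (log2 fold change 3.66, SE 0.49, adjusted p = 0.0398). Without WT_2, where it had only 4 counts, it was 13.9-fold higher (log2 fold change 3.79, SE 0.459, adjusted p = 0.00378). The call with all 6 libraries was lost when any library other than WT_2 was left out, with adjusted p up to 0.229 and log2 fold changes from 3.21 to 4.19. These fits called at most 0.0395% of all genes higher. The call was also lost with limma on TPM at a pseudocount of 1 or 0.1 (adjusted p = 0.256 and 0.516), where 0.00717% of all genes were higher. With the replicate block it was lost as well (0.0691), where 0% were higher. It held under 7 of 15 alternatives. Without WT_2 the call held under all 14 alternatives.

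Nkg7 was at 7.29, 5.85 and 5.07 CPM in Control and at 2.95, 1.08 and 1.23 CPM in Blimp-1-deficient libraries, without overlap. With all libraries DESeq2 called it lower (adjusted p = 0.00742). By edgeR its log2 fold change was -1.79 (SE 0.435, adjusted p = 0.159) with all libraries. Without WT_2 it was -1.81 (SE 0.42, adjusted p = 0.0329), or 3.5-fold lower, and the call held under 7 of 14 alternatives. It was lost when Control replicate 1 or 3 or Blimp-1-deficient replicate 2 or 3 was also left out, with adjusted p from 0.0594 to 0.172, and with limma on either scale or robust dispersion, with adjusted p from 0.0507 to 0.0579.

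Klrd1 was at 2.39, 1.46 and 2.41 CPM in Control and at 0.797, 0.361 and 0.673 CPM in Blimp-1-deficient libraries, also without overlap. With all libraries DESeq2 called it lower (adjusted p = 0.0048). By edgeR the log2 fold change was -1.81 (SE 0.393, adjusted p = 0.121), and -1.96 without WT_2 (SE 0.314, adjusted p = 0.00968). The latter was 3.88-fold lower and held under 13 of 14 alternatives, with an adjusted p of 0.0508 in the other, which also leaves out Control replicate 1.

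Gzmb, Gzma, Klrk1 and Clec2d were below every Control library in every Blimp-1-deficient library but did not pass the threshold by edgeR at the settings used, with or without WT_2. Under single alternatives they did. With all libraries, Gzma passed with DESeq2 and with library size alone (adjusted p = 0.0490 and 0.0417). Without WT_2, Klrk1 passed under 4 of 14 alternatives and Gzmb, Gzma and Clec2d under 3 each, namely no filter on low counts and the omission of Blimp-1-deficient replicate 1 for all 4 genes, DESeq2 for Klrk1 and Clec2d, and the replicate block for Gzmb, Gzma and Klrk1. With Nkg7 and Klrd1, 6 of 10 genes had this order of the groups, against 10.8% of all genes tested. Without WT_2 the same order held for these 6 genes and for 26.2% of all genes tested. Gzmb was at 135, 65.8 and 88.2 CPM in Control and at 62.8, 16.5 and 16.7 CPM in Blimp-1-deficient libraries. Its log2 fold change was -1.60 (SE 0.593, adjusted p = 0.354), and -1.79 without WT_2 (SE 0.569, adjusted p = 0.0796).

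Gzma was at 2.36, 2.68 and 0.93 CPM in Control and at 0.544, 0.0258 and 0.124 CPM in Blimp-1-deficient libraries. The log2 fold change of -3.05 (SE of 1.02, adjusted p = 0.307) rested on counts of 45, 2 and 12 in the latter, and was -2.81 without WT_2 (adjusted p = 0.0709). Klrk1 was at 3.76, 2.44 and 2.74 CPM against 2.08, 0.555 and 0.983 CPM (log2 fold change -1.33, SE 0.508, adjusted p = 0.375, and -1.42 without WT_2, adjusted p = 0.0926). In all 3 genes Blimp-1-deficient replicate 1 was the highest of its group.

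Clec2d was at 27.5, 56.0 and 31.4 CPM in Control, with WT_2 the highest, and at 26.5, 21.8 and 20.1 CPM in Blimp-1-deficient libraries. Its log2 fold change was -0.72 (SE 0.281, adjusted p = 0.382) with all libraries and -0.36 without WT_2 (SE 0.126, adjusted p = 0.103). With limma on TPM and all libraries it was 1.02 instead, where the median of all genes was shifted to 1.28. Clec2d and Clec2i, which lie 293 kb apart by their starts, thus differed from Control in opposite directions in CPM, although only Clec2i passed the test.

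Gzmc, Prf1 and Klrb1c overlapped between the genotypes. Gzmc was at 10.5, 4.14 and 3.56 CPM in Control and at 35.1, 2.15 and 3.96 CPM in Blimp-1-deficient libraries (log2 fold change 1.13, SE 1.08, adjusted p = 0.751, and 0.98 without WT_2, adjusted p = 0.589). With the replicate block and without WT_2, Gzmc was past the threshold at 1.01 (adjusted p = 0.00278). Prf1 was at 2.23, 3.65 and 2.62 CPM and at 5.59, 1.5 and 1.44 CPM (log2 fold change 0.05, SE 0.594, adjusted p = 0.996, and 0.24 without WT_2, adjusted p = 0.817). For both genes Blimp-1-deficient replicate 1 was the highest of all 6 libraries and the other Blimp-1-deficient libraries lay below most Control libraries. Klrb1c had 29, 0 and 3 counts in Control and 18, 9 and 12 counts in Blimp-1-deficient libraries, too few to order the groups.

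**Figure D2:**
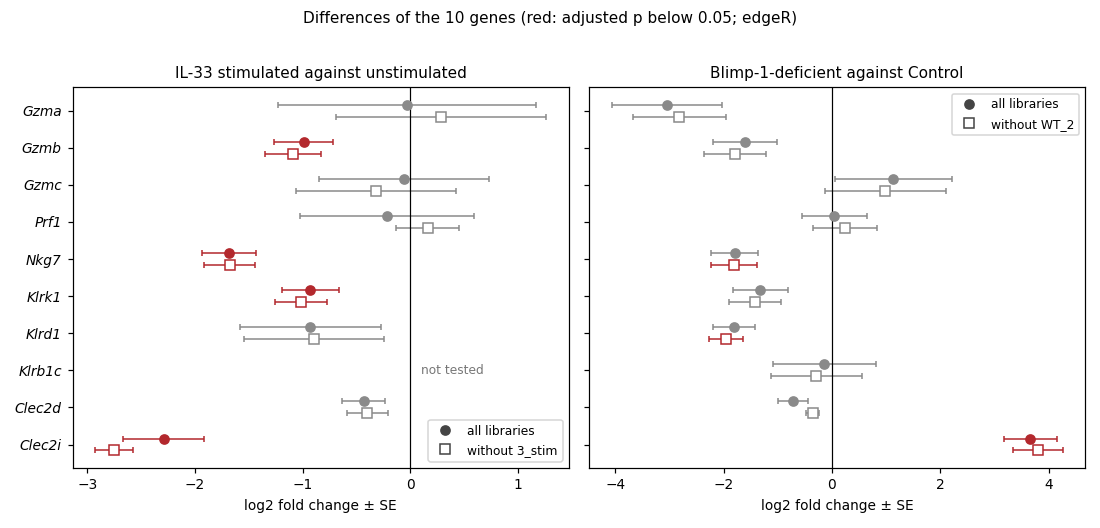
The log2 fold change of each gene from edgeR is plotted with its SE as error bars, on the left for IL-33 stimulated against unstimulated and on the right for Blimp-1-deficient against Control. Filled circles use all libraries, open squares leave out 3_stim or WT_2, and red marks an adjusted p below 0.05. Clec2i is at -2.29 on the left and at 3.66 on the right with all libraries.

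Blimp-1-deficient replicate 1 stood apart for the granule genes. Gzmc was 8.85 times as high there as in the higher of the other Blimp-1-deficient libraries, Gzmb 3.76 times and Prf1 3.74 times. The neighbouring genes Gzmd and Gzme, which encode further granzymes of the mouse cluster, were at 17.6 and 9.63 CPM in this library and at most at 0.731 and 0.487 CPM in the other 5. Gzmg was at 1.43 CPM, against 0.0241 CPM or less. In TPM the level of Gzmc relative to Gzmb was 0.897 in this library, 0.21 and 0.381 in the other Blimp-1-deficient libraries and 0.0648 to 0.125 in Control. Ncr1, an NK and ILC1 receptor gene, was at 2.07 CPM in this library, against 0.559 CPM or less in the other 5, while Klrg1 and Serpinb9 were no higher there than in the other Blimp-1-deficient libraries. Gzmd, Gzme, Gzmf and Gzmg have 4.75% to 9.47% of their 75-base stretches in common with other genes, so single reads may be divided among them. In the stimulation experiment these 4 genes summed to at most 0.142 CPM.

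**Figure D3:**
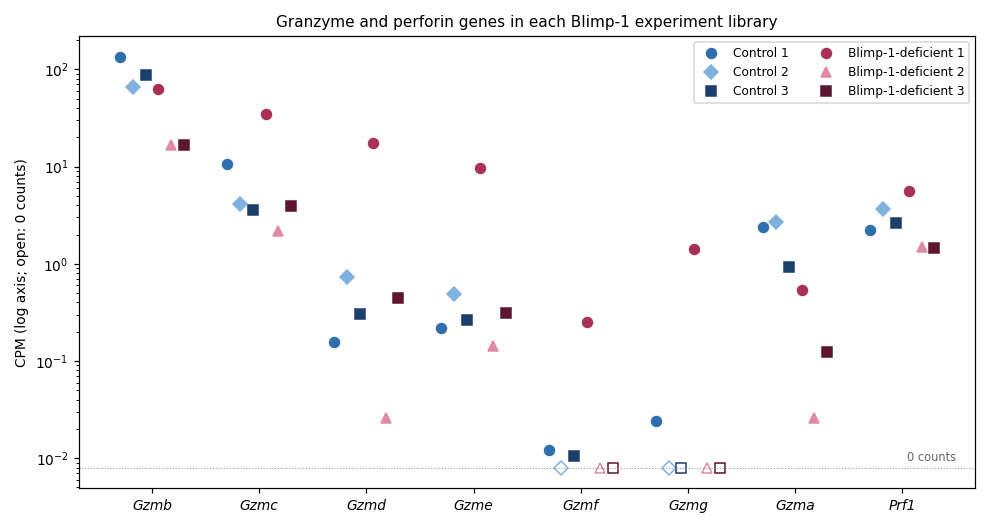
The CPM of 8 granzyme and perforin genes is plotted on a log axis for each of the 6 libraries of the Blimp-1 experiment, with a count of 0 drawn as an open symbol at the bottom line. Blimp-1-deficient replicate 1 is the highest library for Gzmc, Gzmd, Gzme, Gzmf, Gzmg and Prf1, with 35.1 CPM for Gzmc and 17.6 CPM for Gzmd.

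Without WT_2 and without Blimp-1-deficient replicate 1, 6 of the 10 genes were lower at an adjusted p below 0.05 by edgeR, against 3.47% of the 17663 genes tested: Gzma, Gzmb, Nkg7, Klrk1, Klrd1 and Clec2d. Gzmb was then at -2.73 on the log2 scale (adjusted p = 0.00267) and Gzma at -4.34 (adjusted p = 0.0191). Over all 14 alternatives without WT_2 the adjusted p of Gzmb ranged from 3.17e-07 to 0.317 and that of Gzma from 8.17e-05 to 0.354. This fit rests on 2 libraries of each genotype, and leaves out a library that was seen to be the highest of its group for several of the genes. On leaving out each library in turn, beside WT_2, the number lower ranged from 0 to 6. The signs of Gzmc and Prf1 turned, to -1.18 and -0.71.

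Markers of other cells were compared between the genotypes. The 13 T cell markers summed to 74.97 to 83.1 CPM in Control and 78.0 to 96.4 CPM in Blimp-1-deficient libraries. The 16 NK and ILC1 markers summed to 72.4 to 81.4 CPM, against 39.7 to 52.9 CPM in Control. The sums of the whole list of 20, with Il2rb and the members in it, overlapped, at 543.8 to 605.9 against 537.8 to 591.8 CPM. Of its 15 tested genes 1 was higher and 1 lower with all libraries, against 0.45% and 0.306% of all genes, and 2 were higher and 2 lower without WT_2, against 8.25% and 5.72%. Eomes, a member of the list, was lower in each fit. Mast cell and basophil markers summed to 164.4 to 211.6 CPM in Blimp-1-deficient and 136.6 to 150.9 CPM in Control libraries, without overlap, and 0 of 3 tested passed by edgeR, with 1 higher at an unadjusted p below 0.05. Myeloid markers summed to 375 to 497.1 and 487.6 to 580.1 CPM, with 1 of 14 lower. Epithelial and stromal markers summed to 4107 CPM in WT_2, to 236 and 375 CPM in the other Control libraries and to 569 to 792 CPM in Blimp-1-deficient libraries. Of 12 tested, 0 passed with all libraries, and 5 were higher and 0 lower without WT_2. The shares over all genes given above for each fit also apply to the myeloid and the epithelial and stromal calls. The part of other cells in the differences was not tested.

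The receptors that bind the products of Clec2i and Clec2d were measured in the same libraries. Klrb1f, which encodes NKR-P1F, the receptor for Clr-g, was at 1.18, 1.92, 1.40 and 1.83 CPM in unstimulated and at 0.394, 0.745, 0 and 0.708 CPM in stimulated libraries. Its log2 fold change was -1.69 with all libraries (adjusted p = 0.0874) and -1.36 without 3_stim (adjusted p = 0.0042), whose 0 allows up to 0.295 CPM. In the Blimp-1 experiment it was at 0.193 and 0.127 CPM in Control without WT_2 and at 0.652, 0.413 and 0.435 CPM in Blimp-1-deficient libraries, which gave 1.65 on the log2 scale (adjusted p = 0.0391). With WT_2, which had 0 counts, the adjusted p was 0.267. In both experiments Klrb1f differed in the same direction as Clec2i.

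Klrb1b, which encodes NKR-P1B, the inhibitory receptor for Clr-b, fell from 7.74 to 2.77 CPM on average with IL-33 (log2 fold change -1.48, SE 0.201, adjusted p = 0.000974). It was higher in Blimp-1-deficient ILC2s without WT_2, at 2.49 against 1.27 CPM (log2 fold change 0.98, adjusted p = 0.0493), but did not pass with all 6 libraries (adjusted p = 0.394). Clec2d, its ligand gene, was at 22.8 against 29.4 CPM without WT_2. Of the 75-base stretches of Klrb1b, 24.5% also occur in other genes, mainly Gm44511. Klrb1b and Klrb1f lie within 158.3 kb of the Clec2i start.

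**Figure D4:**
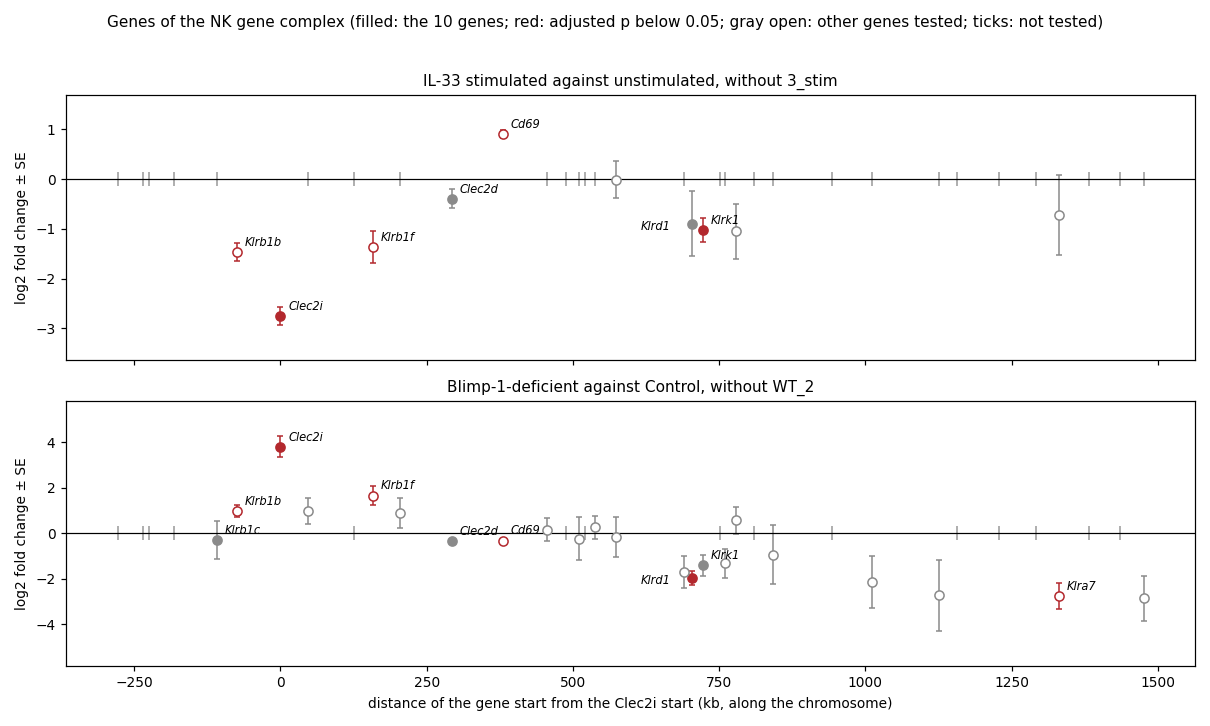
The log2 fold change from edgeR of the genes of the NK gene complex is plotted with its SE against the distance of each gene start from the start of Clec2i, in kb, for stimulation without 3_stim (top) and Blimp-1 deficiency without WT_2 (bottom). Filled points are among the 10 genes, red points have an adjusted p below 0.05, and ticks on the line are genes not tested. Clec2i is the lowest point at the top, at -2.75, and the highest at the bottom, at 3.79, with Klrb1b and Klrb1f on the same side of 0 as Clec2i in both.

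Of 30 other receptor genes on a list of the NK gene complex and its relatives found in the tables, 7 passed the filter in the stimulation experiment, and 2 were higher and 2 lower (median log2 fold change -0.50, against 0.06 over all genes). The shares over all genes in this comparison, 16.2% higher and 16.1% lower, also apply to the counts of the other lists. Within the complex, Cd69, an early activation marker, rose 1.80-fold (adjusted p = 0.000342) and Klrb1b fell, as given above. The other 2 calls were of Klrg2, which rose from 0.304 to 1.44 CPM (adjusted p = 0.00684), and Klrg1, an inhibitory receptor of activated ILC2s, which fell 1.42-fold (adjusted p = 0.0212). Klrg1 and Klrg2 lie outside the complex. Without WT_2, 18 passed the filter in the Blimp-1 experiment, and 2 were higher and 3 lower (median -0.33, against 0.01), where 8.25% of all genes were higher and 5.72% lower. Klra7, a gene of the Ly49 receptors, fell 6.81-fold from 0.852 to 0.125 CPM (adjusted p = 0.0212), and Klrg1 fell 2.01-fold from 209.1 to 103.5 CPM (adjusted p = 0.00996). Cd69 fell 1.25-fold (adjusted p = 0.0402), and Klrb1b and Klrb1f were the 2 that rose. With all 6 libraries 0 of 16 passed in either direction by edgeR, and 2 were higher and 4 lower at an unadjusted p below 0.05, against 6.17% and 5.78% of all genes.

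Of 17 other NK receptors and adaptors, 15 passed the filter in the stimulation experiment, with 1 higher and 4 lower (median -0.68). Hcst, which encodes DAP10, the adaptor through which NKG2D signals, fell 2.17-fold from 20.2 to 9.27 CPM (adjusted p = 0.00887), in the direction of Klrk1. Cd96 fell 1.95-fold (adjusted p = 0.0055) and Fcer1g, the gene of an adaptor of Fc receptors and NK receptors, fell 1.92-fold (adjusted p = 0.0432). Tigit, an inhibitory receptor gene, rose 24.0-fold from 2.69 to 64.6 CPM (adjusted p = 1.56e-05). Ulbp1, which encodes a ligand of NKG2D, fell 2.41-fold (adjusted p = 0.000552) and was the only 1 of 3 tested genes of the other Clec2 genes and receptor ligands to pass. Among the receptors and adaptors in Blimp-1-deficient ILC2s without WT_2, 3 of 17 were higher, against 8.25% of all genes, and 0 lower by edgeR, with 5 higher and 0 lower at an unadjusted p below 0.05, against 16.7% and 14.5%. Cd226 and Cd96, which encode receptors for nectin-type ligands, rose 1.93-fold each in that fit (adjusted p = 0.00146 and 0.00713). With WT_2 included they were at 1.16 and 0.99 on the log2 scale and did not pass (adjusted p = 0.117 and 0.0544). The other receptor or adaptor gene that rose without WT_2 was Sh2d2a, 1.22-fold (adjusted p = 0.0266), and among the other Clec2 genes Clec2l fell 2.79-fold from 1.99 to 0.707 CPM (adjusted p = 0.0106). With all 6 libraries 0 of 17 receptors and adaptors passed in either direction by edgeR, against 0.45% higher and 0.306% lower of all genes. At an unadjusted p below 0.05, 4 were higher and 0 lower in that fit, against 6.17% and 5.78%.

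Of 17 genes of granule machinery and granzyme inhibitors in the tables, 16 were tested in the stimulation experiment, and 6 were higher and 6 lower (median -0.07), against 16.2% and 16.1% of all genes. Serpinb9, which encodes an inhibitor of granzyme B, rose 3.77-fold from 59.0 to 222 CPM (adjusted p = 7.65e-05), and Serpinb6b, which encodes an inhibitor of mouse granzyme A, rose 3.54-fold from 23.03 to 81.4 CPM (adjusted p = 1.06e-05). Stx11, a syntaxin of granule fusion, rose 2.04-fold from 25.3 to 51.6 CPM (adjusted p = 0.00161), and Srgn, the gene of the granule proteoglycan serglycin, rose 1.93-fold from 737.5 to 1426 CPM (adjusted p = 0.000364). Serpina3g, a serpin gene, rose 2.05-fold (adjusted p = 0.0271) and Tnfsf10, the gene of the death ligand TRAIL, rose 1.95-fold (adjusted p = 0.000468). Cst7, the gene of cystatin F, fell 2.71-fold, and Rab27a and Unc13d, which serve in granule docking and priming, fell 1.91-fold and 1.69-fold. Gzmm was the only other granzyme gene that passed the filter, and fell 1.94-fold from 1.19 to 0.616 CPM (adjusted p = 0.0226).

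In Blimp-1-deficient ILC2s, Serpinb9 was at 80.1, 82.5 and 109 CPM, against 33.3, 23.6 and 29.6 CPM in Control. It was higher with all libraries (log2 fold change 1.63, SE 0.176, adjusted p = 0.0254) and without WT_2 (1.53, adjusted p = 0.00167). Serpinb9 was the only gene of the 17 to pass with all 6 libraries, against 0.45% higher and 0.306% lower of all genes. At an unadjusted p below 0.05, 6 of the 17 were higher and 1 lower in that fit, against 6.17% and 5.78%. Without WT_2, 4 were higher and 2 lower, against 8.25% and 5.72% of all genes, among them Serpinb6b 2.32-fold higher (adjusted p = 0.003), Ctsw, the gene of cathepsin W, 1.88-fold higher (adjusted p = 0.0189), Tnfsf10 1.33-fold higher (adjusted p = 0.0092), Cst7 1.39-fold lower (adjusted p = 0.0113) and Fasl, the gene of a death ligand, 2.48-fold lower (adjusted p = 0.022).

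**Figure D5:**
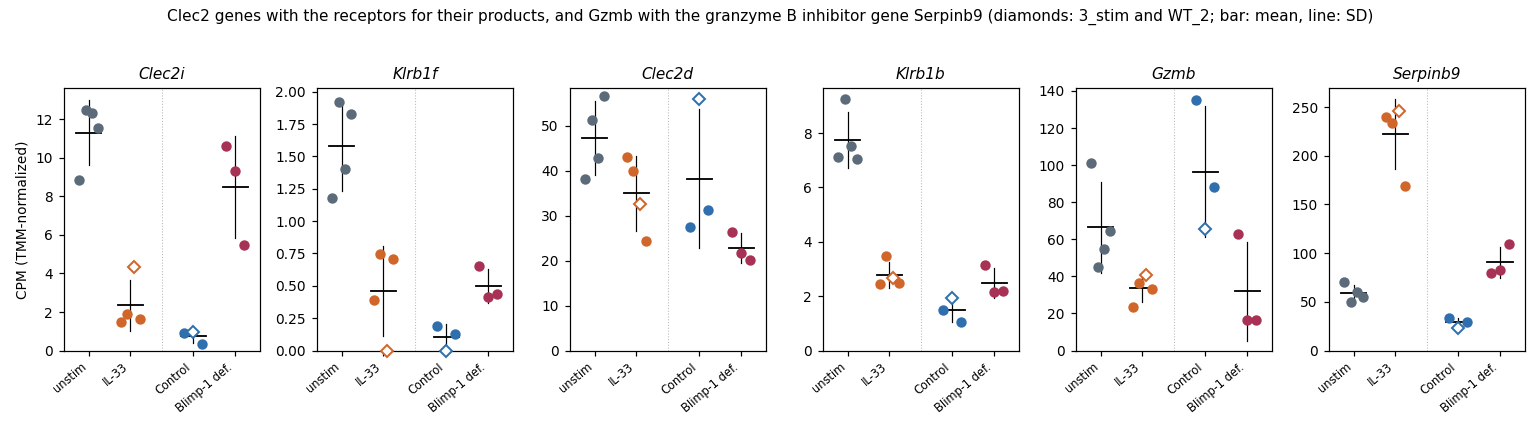
CPM on linear axes from 0 is plotted by group for Clec2i and its receptor gene Klrb1f, Clec2d and its receptor gene Klrb1b, and Gzmb with the inhibitor gene Serpinb9. Points are libraries, diamonds are 3_stim and WT_2, bars are means and lines are SDs. Serpinb9 averages 222 CPM in stimulated against 59.0 CPM in unstimulated libraries, while Gzmb averages 33.5 against 66.4 CPM.

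Among 21 regulators and products of ILC1s and NK cells, 16 passed the filter in the stimulation experiment, with 1 higher and 4 lower (median 0.21), against 16.2% and 16.1% of all genes. Ifng, the gene of interferon-γ, rose from 0.534 to 6.11 CPM (log2 fold change 3.51, SE 0.762, adjusted p = 0.00924), while Gzmb, Nkg7 and Klrk1 fell. The genes of the receptor chains for IL-12 and IL-18, Il12rb2 and Il18r1, fell 2.22-fold and 1.84-fold (adjusted p = 0.0208 and 0.026), and Ikzf2, the gene of Helios, fell 1.64-fold (adjusted p = 0.00641). In the Blimp-1 experiment Eomes, a T-box factor of NK cells, was at 2.25, 2.19 and 2.39 CPM in Control and at 0.519, 0.309 and 0.259 CPM in Blimp-1-deficient libraries. It was 6.29-fold lower with all libraries (log2 fold change -2.65, SE 0.355, adjusted p = 0.0398) and the only 1 of 19 tested to pass, where 0.45% of all genes were higher and 0.306% lower. Without WT_2, 2 of 19 were higher and 4 lower, against 8.25% and 5.72% of all genes, with Eomes at -2.67 (adjusted p = 0.00327). In that fit Il18r1 rose 1.38-fold (adjusted p = 0.00772), Ikzf2 fell 1.38-fold (adjusted p = 0.00688) and Id2, a regulator of all ILCs, fell 1.25-fold (adjusted p = 0.0455). Tbx21, the related gene of T-bet, was at 1.15, 0.974 and 0.602 CPM in Control and at 1.91, 0.916 and 0.559 CPM in Blimp-1-deficient libraries, with overlap.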

How the data were processed

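The authors trimmed paired-end reads of 75 bases, aligned them to GRCm38 and counted them per gene with Subread. Their methods name HISAT2 as the aligner and the labels name Bowtie2. They deposited raw counts, which are whole numbers without normalization, and TPM, which the authors scaled to a sum of 1e+06 per library. The strand used for counting is not given in the sources used here. Every library's columns were analysed, and the gene length column was not.

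Counts were tested with edgeR 4.0.16 in R 4.3.3 (TMM, filterByExpr at default settings, quasi-likelihood test without robust estimation), separately in each experiment and without a replicate term. P-values are two-sided and adjusted by Benjamini-Hochberg over all genes tested, with a threshold of 0.05. They measure the spread between these libraries, which the design text ties to individual mice and figure legends to pooled animals. CPM are counts over the TMM-scaled library size, and fitted folds use a prior count of 0.125. Alternatives were DESeq2 1.42.0, its size factors (RLE), library size alone, no filter, a mean count of at least 50, limma 3.58.1 on TPM after a log2 transform with a pseudocount of 1 or 0.1 (for genes averaging 1 TPM or more), robust dispersion, a replicate block, and the omission of single libraries. The test was tried on simulated data with known changes. No libraries agreed within sampling noise.

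The 10 genes and the 6 lists of related genes and 7 marker lists were chosen with earlier results of these data known. The 10 genes are always named. List genes were named where they had an adjusted p below 0.05 and a mean of at least 1 CPM, at most 20 per comparison by size of the fold change, taken with all libraries for stimulation and without WT_2 for Blimp-1. Gzmd, Gzme, Gzmf, Gzmg, Ncr1, Klrb1f, Klrg2, Klra7, Klrg1 in the stimulation experiment, Tbx21, Fasl and Gzmm fall outside that rule or at its edge and were named after their values were seen. Positions, exon overlaps and shared stretches come from GENCODE M21 (GRCm38) and promoters from RefSeq (GRCm38.p6), with 9 of the 10 genes matched. Figures were drawn with matplotlib 3.10.9 in Python 3.11.15. The depth is given with the results, and limits from counts of 0 (3 counts) cover counting error only.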

Additional observations from a re-analysis of the deposited data

Results flagged for a closer look

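The highest or lowest library of a group stood apart from the rest for 2 of the 20 gene and group pairs with 4 libraries that were examined. Chance alone gives about 1 in 20 such cases. Gzmc was at 11.6 CPM in Unstimulated replicate 3, with a gap to the next library of 0.863 of the group's range. Clec2i was at 4.334 CPM in IL-33 stimulated replicate 3 (3_stim), with a gap of 0.86 of the range. That library had the fewest counts of its experiment, 10470125, and held 44 counts of Clec2i.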

How the results depend on the processing

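In the stimulation experiment, 123 of 150 values of the 10 genes under the alternatives kept their sign and their side of the threshold with all libraries, and 126 of 142 without 3_stim. In the Blimp-1 experiment these were 119 of 143 with all libraries and 111 of 137 without WT_2. The number of genes lower with IL-33 was 2 with the replicate number as a block (12.3% of all genes) and 2 to 4 on leaving out each library (11.6% to 29.7%). The number higher without Blimp-1 was 0 with limma on log2(TPM + 1) and 0 with limma on log2(TPM + 0.1) (0.00717% of all genes in each). It was 0 with the replicate block (0%) and 0 to 1 on leaving out each library (0% to 8.25%). The number lower was 3 with DESeq2 (3.19% of all genes), 1 with library size alone (0.421%) and 0 to 2 on leaving out each library (0% to 5.72%). Without WT_2, the number lower was 4 with DESeq2 (8.91% of all genes), 6 without a filter (5.1%), 1 with limma on either scale (4% and 3.95%), 1 with robust dispersion (6.16%), 5 with the replicate block (5.44%) and 0 to 6 on leaving out each library (1.8% to 3.59%), and the number higher was 2 with the replicate block, Clec2i and Gzmc (10.8%). The cause was not tested. The replicate numbers were not taken to pair the libraries, since the correlation of same-numbered deviations over all genes tested ranged from -0.123 to 0.312 with IL-33 and from -0.158 to 0.143 without Blimp-1 (0.101 and 0.181 for the 2 numbers left without WT_2), and the design text divides the mice of the stimulation experiment between the groups. With IL-33, the block removed the calls of Gzmb and Klrk1.

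Reversed signs concerned genes that did not pass the threshold. With IL-33, Gzmc was at 0.16 and 0.21 with limma and 0.53 with the replicate block, and leaving out libraries gave -0.32 to 1.26 for Gzmc, -0.58 to 1.04 for Gzma and -0.62 to 0.16 for Prf1. Without 3_stim, Gzma was at -0.0051 and -0.53 with limma and at -0.19 to 1.39 on leaving out libraries. Gzmc was at 1.01 with the replicate block and at -0.68 to 0.98 on leaving out libraries. Prf1 was at -0.011 with library size alone, at -0.093 and -0.14 with limma and at -0.10 to 0.33 on leaving out libraries. Without Blimp-1, Prf1 was at -0.26 with the replicate block and at -0.91 to 0.36 on leaving out libraries, Klrb1c at 0.10 with library size alone, at 0.66 with the replicate block and at -0.76 to 0.057 on leaving out libraries, Gzmc at -1.0045 to 1.88 on leaving out libraries, and Clec2d at 1.02 and 1.09 with limma. Without WT_2, leaving out a further library gave -1.18 to 1.97 for Gzmc, -0.71 to 0.57 for Prf1 and -1.19 to 2.23 for Klrb1c, which was at 0.26 with the replicate block. Where a single Control library was left, it was assumed to vary like the others. Library size alone shifted the median of all genes to 0.45, and limma on TPM to 1.28 and 1.69, in the Blimp-1 experiment with WT_2. Without 3_stim, library size alone gave 3077 genes higher and 6337 lower, against 4328 and 4666 with TMM. Depth limits the low genes, since 3_stim held 0 counts of Prf1, 1 of Gzma, 3 of Klrd1 and 9 of Nkg7, WT_2 held 4 of Clec2i, 6 of Klrd1, 10 of Klrk1 and 11 of Gzma, and both held 0 of Klrb1c.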
